A study of Vigna radiata with 42 samples.

Results

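In the leaves of mung bean (Vigna radiata) under salt, 43 genes of the 28740 in the table kept close to or above their starting level for the first 3 h and stood lower at both 24 and 48 h. They were chosen from the measured values. For each gene the change was the mean of log2(value + 1) in a group less the mean in the 0 h group of the same treatment. A gene was taken when its change was -0.8 or lower at 24 h and at 48 h, and above -0.5 at 1 h and at 3 h, in both treatments. On this scale -1 is a halving for a well expressed gene, and the change of genes near 0 is understated.

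All plants were seedlings of the cultivar Weilv 9 in hydroponic culture, and the first fully expanded true leaves were taken. T1 seedlings were pre-conditioned: they spent 24 h in 100 mM NaCl, recovered for 48 h without salt, and then received 100 mM NaCl again. T2 seedlings received 100 mM NaCl once, with no earlier salt. Leaves came from 7 times of the final salt in each treatment: 0 h, 1 h, 3 h, 6 h, 12 h, 24 h and 48 h. There were 3 libraries per time, 42 in all, and 0 h is the recovered state in T1 and the never-salted state in T2. How many plants went into a library was not found in the labels, so the p-values below measure the spread between these libraries. There are no unsalted plants after 0 h, so the effects of salt and of leaf age cannot be told apart. The plants had 16 h of light and 8 h of dark, and 0, 24 and 48 h fall at the same hour of the day while 6 and 12 h do not.

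As background, salt reaches a leaf in a fast phase, when water becomes harder to draw from the root medium, and a slower phase, when sodium and chloride build up in the leaf itself. Leaf growth and photosynthesis are known to be curtailed in both, and many leaf transcripts also follow a daily course set by light and the circadian clock. A transcript level is the balance of synthesis and breakdown, so a long-lived transcript can decline hours after its synthesis has slowed. The leaf is measured here as a whole, so fewer cells of a type and less RNA per cell cannot be told apart. The genes carry IDs only, 0 of which could be paired with an entry of the RefSeq gene table, so the genes are described by their course and level, with no function and no sequence, and the leaf label was not checked against markers.

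Column totals ran from 783218 to 1228250, and read depth is unknown. The totals differed by time. They were 1082560 to 1228250 at 0 h and 884124 to 969511 at 6 h. At 12 h they were 783218 to 809852, and at 48 h 896981 to 980470. With every library scaled to the same total, the rule found 24 genes, 22 of them among the 43. T1 0 h replicate 2 stands apart from the other T1 0 h libraries, and 3 libraries held between 2.08% and 5.38% of their signal in plastid-prefixed IDs, against at most 0.788% elsewhere. These plastid-rich libraries are T1 24 h replicate 1 and, of T2, replicate 2 of 24 h and replicate 3 of 12 h. Without T1 0 h replicate 2 the same rule found 36 genes, 30 of them among the 43, and without T2 0 h replicate 1 it found 39, with 27 of the 43. Without the 3 plastid-rich libraries it found 52, with 37 of the 43. A gene was tested when 3 or more libraries had a value of 1 or higher, which 19753 genes met, all 43 included.

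The late decline was of similar depth in the treatments. These values chose the genes and are given as a description. The median change was -1.20 at 24 h and -1.66 at 48 h in T1, and -1.23 and -1.43 at those times in T2. Over all genes tested the medians were 0.02 and 0.03 in T1, and both were 0.00 in size in T2. At 48 h the median gene held 27.2% of its 0 h level in T1, with a range from 4.33% to 53.1%, and 32.6% in T2, with a range from 0.353% to 55.1%. In 26 of the 43 genes the level was lower at 48 h than at 24 h in both treatments, and in 6 it was higher in both. Taken singly, 10 of the 43 were higher at 48 h than at 24 h in T1 and 13 in T2. Of all genes tested, 50.3% were higher in T1 and 50.5% in T2. These shares are for each treatment alone, and none is given for the counts in both. The changes were -1 or lower at both times in both treatments in 19 genes, and -2 or lower in 1, Virad03G0260600, whose levels are given below.

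The hours before the decline varied between genes. At 3 h, 24 of the 43 genes in T1 and 13 in T2 stood at a change of 0.5 or higher, 12 of them in both, while 13.7% of all genes tested did so in T1 and 12.3% in T2. The median change of the 43 at 3 h was 0.63 in T1 and 0.18 in T2. The rule itself left out changes of -0.5 or lower at this time. At 6 h it was 0.31 in T1 and -0.38 in T2, and at 12 h it was -0.61 in T1 and -1.51 in T2.

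**Figure D1:**
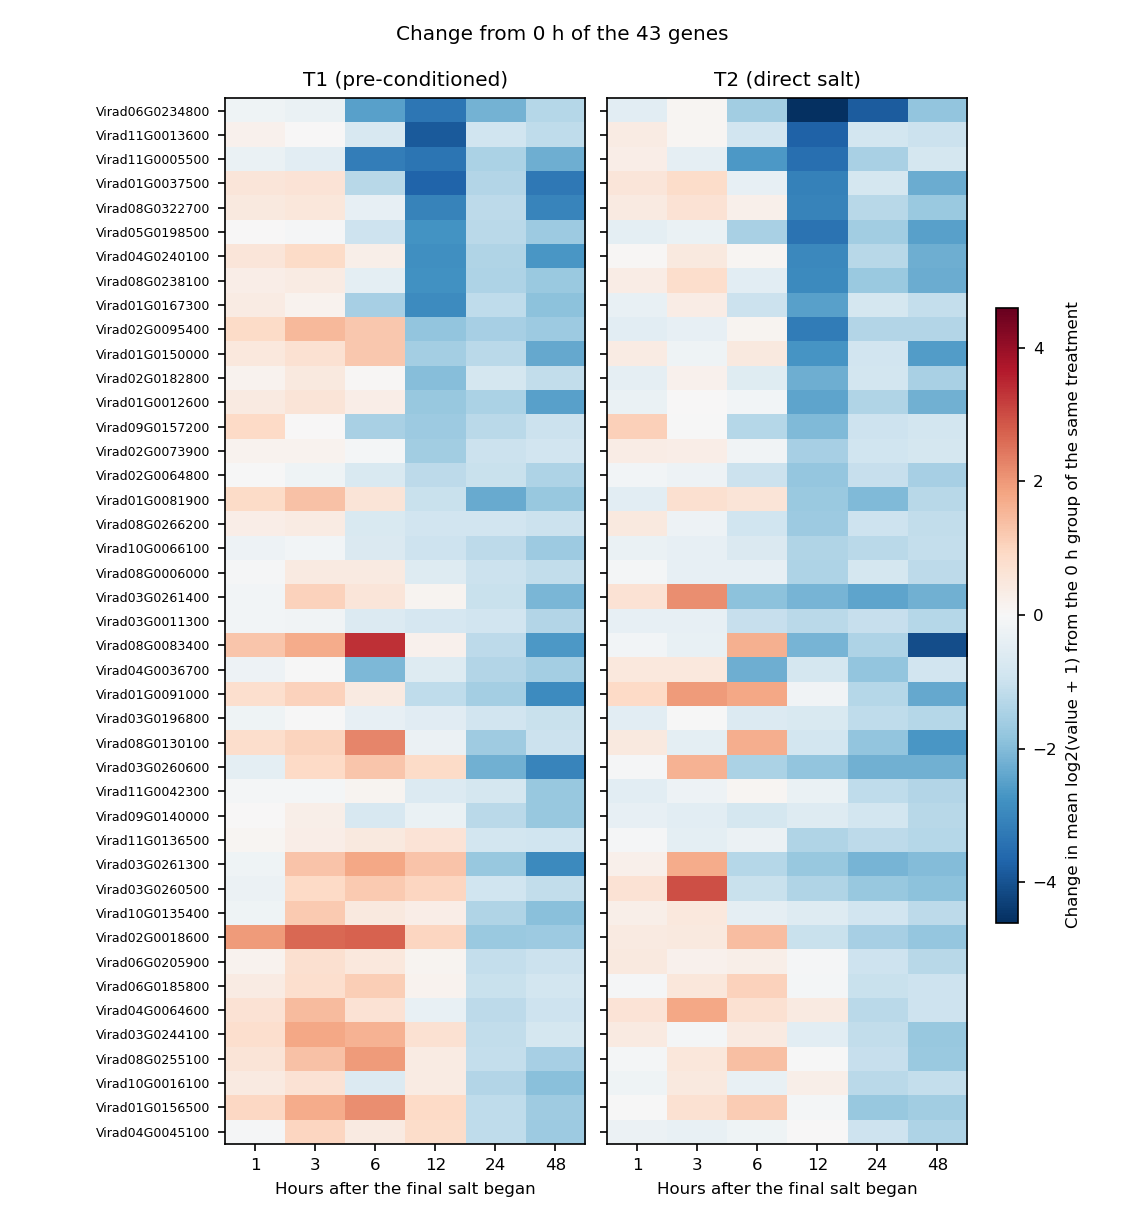
Change from the 0 h group of the same treatment in mean log2(value + 1) for the 43 genes (rows, ordered by the mean change at 12 h) at 1 to 48 h of the final salt (columns), with T1 on the left and T2 on the right. Red is above and blue below 0 h; all genes are blue at 24 and 48 h by choice, while at 12 h the upper rows are the darkest and the lowest rows are close to or above 0.

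Many of the genes were abundant. The median level at 0 h, averaged over the treatments, was 31.4 for the 43 genes and 12.3 for all genes tested, and 30.2% of the 43 exceeded 100 against 7.5% of all genes tested. The rule favours well expressed genes, because log2(value + 1) of a gene near 0 cannot drop by 0.8. The levels compare genes only as far as gene length was divided out, as the table's TPM name says. Together the genes held 1.20% ± 0.17 of all signal in the T1 leaves of 0 h (SD, n = 3), 1.86% ± 0.23 in those of 3 h, 0.490% ± 0.101 in those of 12 h and 0.287% ± 0.033 in those of 48 h. In T2 the shares were 1.15% ± 0.10, 1.77% ± 0.35, 0.446% ± 0.075 and 0.419% ± 0.026 at those times. At 6 h the share was 1.58% ± 0.09 in T1 and 1.85% ± 0.04 in T2. Of the 7 times the mean share was highest at 3 h in T1 and at 6 h in T2, where it differed from that at 3 h by less than the SD at 3 h. It was lowest at 48 h in both treatments, but in T2 it differed from that at 12 h by less than the SD at 12 h. Without the most abundant gene, Virad08G0322700, the share was highest at 6 h in both treatments. It was then 0.889% ± 0.082 in T1, against 0.777% ± 0.047 at 3 h. In T2 it was 0.980% ± 0.036, against 0.718% ± 0.077 at 3 h. In T1 this share was 0.174% ± 0.047 at 24 h and 0.176% ± 0.027 at 48 h.

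Virad08G0322700 was the most abundant of the 43 and ranked 12 among all genes of the table at 0 h. In T1 the 0 h libraries held 10288, 6636 and 8785, the 24 h libraries 5116, 4712 and 2006, and the 48 h libraries 914, 926 and 1327. In T2 the 0 h libraries held 6309, 8590 and 5413, the 24 h libraries 2420, 3468 and 2521, and the 48 h libraries 2103, 1646 and 2396. At both late times every library lay below every 0 h library of its treatment, and the T1 libraries at 48 h lay below all T2 libraries at 48 h. The gene alone held 0.723% of the signal at 0 h and 0.111% at 48 h in T1, and 0.611% and 0.219% in T2.

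The next genes in abundance differed in how even their 0 h libraries were. Virad08G0255100 had 1198, 1212 and 690 in the T1 libraries of 0 h, 433, 727 and 332 in those of 24 h, and 290, 331 and 444 in those of 48 h. The T2 values were 1242, 1491 and 1905, then 577, 833 and 811, then 453, 501 and 449 at those times. In T1 the highest 24 h library, 727, lay above the lowest 0 h library, 690. Virad01G0012600 had 394, 492 and 306 at 0 h in T1, against 463, 612 and 543 in T2. At 24 h it had 159, 238 and 74.2 in T1 and 183, 253 and 191 in T2, and at 48 h 78.4, 59.5 and 69.5 in T1 and 122, 102 and 120 in T2. For this gene the late libraries of each treatment did not overlap with those at 0 h.

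In 3 other abundant genes T1 0 h replicate 2 set the 0 h mean or its spread. Virad06G0234800 had 2563, 356 and 2116 in T1 at 0 h, where 356 is replicate 2, then 306, 228 and 308 after 24 h and 304, 938 and 440 after 48 h. The T2 values were 676, 824 and 830, then 36.8, 57.9 and 73.3, then 164, 327 and 192 at those times. Its T1 libraries at 48 h overlapped those at 0 h through replicate 2, and its level was higher at 48 h than at 24 h in both treatments. Virad01G0091000 had 628, 109 and 680 in T1 at 0 h, then 114, 128 and 122 after 24 h and 45.7, 48.1 and 48.7 after 48 h. The T2 libraries had 216, 135 and 155, then 40.2, 85 and 81.5, then 29.3, 27.6 and 39.3 at those times, and its T1 libraries at 24 h overlapped those at 0 h through replicate 2. Virad02G0095400 had the opposite pattern at 0 h in T1, with 268, 748 and 150, where 748 is replicate 2, followed by 57.4, 283 and 73.7 after 24 h and 93.7, 66.2 and 150 after 48 h. Its T2 libraries had 946, 693 and 947, then 303, 471 and 272, then 329, 304 and 362 at those times, without overlap between 0 h and the late times. In T1 the 24 h library at 283 lay above the 0 h libraries at 268 and 150. The highest T1 library at 48 h, 149.8, lay just below the lowest at 0 h, 150.2.

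**Figure D2:**
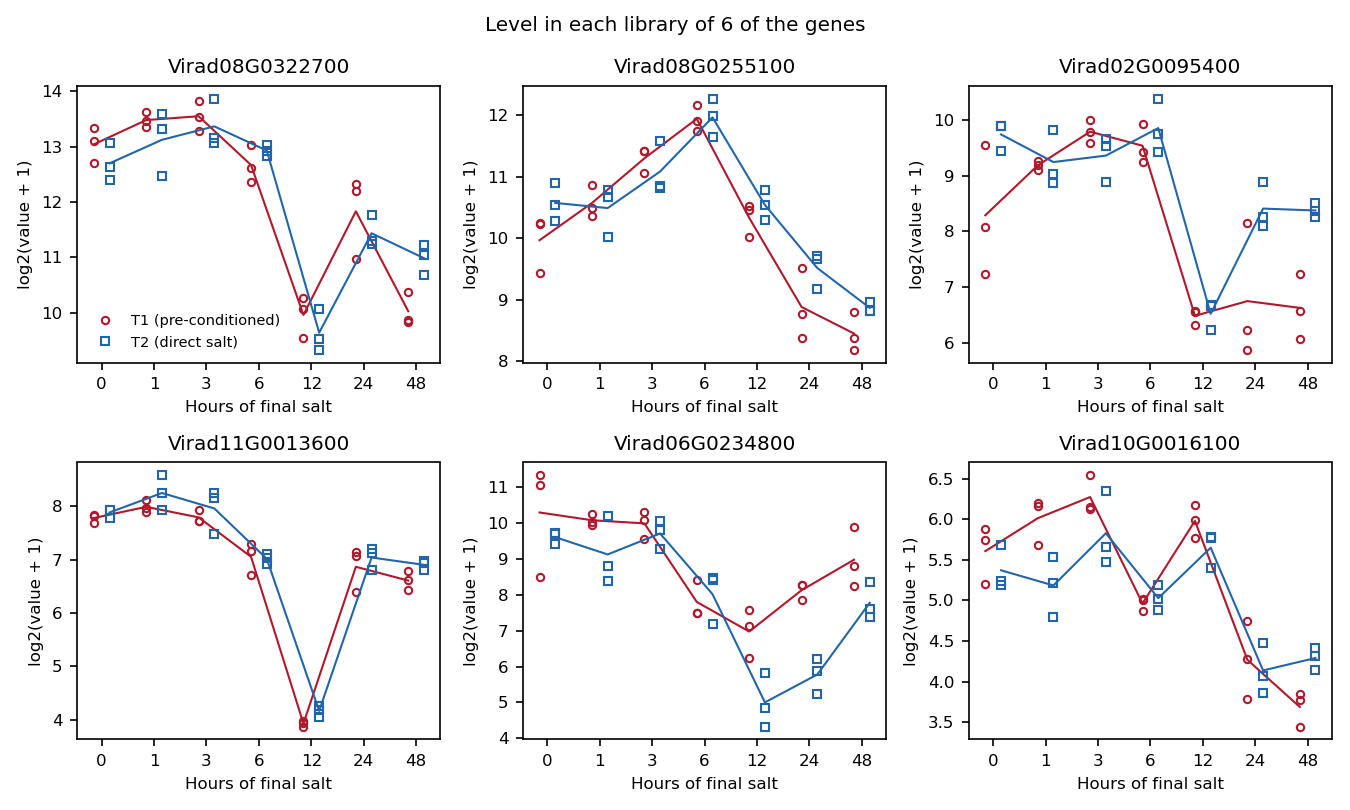
Level of 6 of the 43 genes in each library, as log2(value + 1), at 0 to 48 h of the final salt, with T1 as red circles and T2 as blue squares, and lines through the group means. Virad08G0322700, Virad02G0095400, Virad11G0013600 and Virad06G0234800 are lowest or near lowest at 12 h, Virad08G0255100 peaks at 6 h, and Virad10G0016100 is higher at 12 h than at 6 h.

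Beside the abundant Virad06G0234800 and Virad01G0091000, genes of lower level were among the 6 with the deepest late changes. Virad08G0083400 had 5.74, 22.8 and 3.73 in the T1 libraries of 0 h, 1.93, 5.41 and 2.3 in those of 24 h, and 0.274, 0.375 and 0.746 in those of 48 h. In T2 it had 31, 35.9 and 60.4, then 14.6, 12.6 and 17.2, then 1.29, 1.26 and 1.79 at those times, so that 4.33% of the 0 h level was left at 48 h in T1 and 3.41% in T2. Its 24 h and 0 h libraries overlapped in T1 and not in T2. Between the ends the gene was at its highest, with 114, 130 and 51.4 at 6 h in T1 and 117, 199 and 87.8 at 6 h in T2. Virad01G0037500 had no such peak at 6 h. Its T1 values were 37.1, 30.8 and 43.9 before the final salt, 15.3, 24.3 and 7.14 after 24 h and 1.65, 2.42 and 5.21 after 48 h. Its T2 values were 27, 26.7 and 23, then 10.9, 18.2 and 14, then 5.18, 3.73 and 4.5 at those times, again without overlap between 0 h and either late time.

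The 6 h and 12 h libraries played no part in choosing the genes, but the change from 0 h at those times shares its 0 h libraries with the rule and is described without a test. At 6 h, 7 of the 43 genes in T1 and 15 in T2 had a change of -0.8 or lower, against 12.2% of all genes tested in T1 and 10.4% in T2. At 12 h, 20 genes in T1 and 29 in T2 had such a change, 19 of them in both, against 11.3% of all genes in T1 and 12.9% in T2. A change of 0.5 or higher was seen at 6 h in 15 genes in T1 and 9 in T2, against 17.4% and 13.4% of all genes, and at 12 h in 8 genes in T1 and 0 in T2, against 18.7% and 19.7% of all genes.

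The courses of single genes therefore differed before 24 h. In T1, 22 of the 43 genes stayed above -0.8 at both 6 and 12 h, and in T2 12 did, with 11 in both, so that among the times sampled these 11 first reached -0.8 at 24 h in each treatment. Of all genes tested 78.7% stayed above -0.8 at both times in both treatments. With the changes of T1 and T2 averaged, 9 genes were at -0.8 or lower at both 6 and 12 h, 4 were at 0.5 or higher at 6 h and at -0.8 or lower at 12 h, and 6 were at 0.5 or higher at 6 h and between -0.5 and 0.5 at 12 h. The average hides differences between the treatments in the change from 0 h to 12 h in several genes. The changes in Virad02G0018600, Virad03G0260500, Virad03G0260600, Virad03G0261300 and Virad11G0136500 were 0.99, 0.97, 0.87, 1.30 and 0.62 in T1. In T2 these genes had -1.01, -1.38, -1.80, -1.73 and -1.37. Virad03G0261400 and Virad08G0083400 had 0.11 and 0.20 in T1, against -2.13 and -2.15 in T2. Virad01G0091000 went the other way, with -1.15 in T1 and -0.15 in T2. Each change is counted from the 0 h level of its treatment, and in some genes those levels differed more than the 12 h levels. Virad08G0083400 had means of 10.5 in T1 and 8.99 in T2 at 12 h, but 10.7 and 42.4 at 0 h. Virad02G0018600 had 159 and 112 at 12 h, but 89.6 and 233 at 0 h. Virad01G0091000 had 165 and 152 at 12 h, but 473 and 169 at 0 h.

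Some genes were lower at 12 h than at 24 and 48 h. Virad11G0013600, named after its values were seen, had 14.7, 14.4 and 13.7 in the T1 libraries of 12 h, 141, 132 and 82.5 in those of 24 h, and 109, 85.1 and 96.9 in those of 48 h. Its T2 libraries had 17.2, 18.2 and 15.6, then 110, 146 and 137, then 124, 111 and 121 at those times. Its 0 h libraries lay between 204 and 227 in T1 and between 219 and 243 in T2. Over the 43 genes, 17 in T1 and 22 in T2 had a higher mean log2 level at 24 h than at 12 h, against 51.9% of all genes tested in T1 and 51% in T2.

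Whether the genes moved between 6 and 12 h was tested in libraries that the rule did not use. The direction of the step is not independent of the choice, since the rule asks for a fall between its early and late times. The step lies between those times, so an excess of falls against all genes tested is partly built in. How much of the excess the rule alone would give was not tested. Many of the 43 genes fell. In T1, 22 genes (51.2%) were lower at 12 h than at 6 h and 2 (4.65%) were higher, while 22.1% of the 19753 genes tested were lower and 20.9% higher. In T2, 25 genes (58.1%) were lower and 2 (4.65%) higher, while 19.1% of all genes were lower and 18.4% higher. The median log2 difference, 12 h minus 6 h, was -0.95 in T1 and -1.08 in T2, against -0.01 and -0.00 over all genes. In both treatments 20 genes (46.5%) fell, against 15% of all genes tested, and 2 rose.

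These calls came from limma with an adjusted p under 0.05, fitted to all 42 libraries. After scaling all libraries to 1 total, the shares of all genes lower and higher were 10.2% and 33.6% in T1 and 10.2% and 27.1% in T2, and the medians over all genes were 0.20 and 0.15, while 22 and 25 of the 43 genes were still called lower. With 1 library left out the number lower ran from 22 to 25 in T1 and from 25 to 27 in T2, and of the 36 genes found without T1 0 h replicate 2, 21 fell in T1 and 22 in T2.

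**Figure D3:**
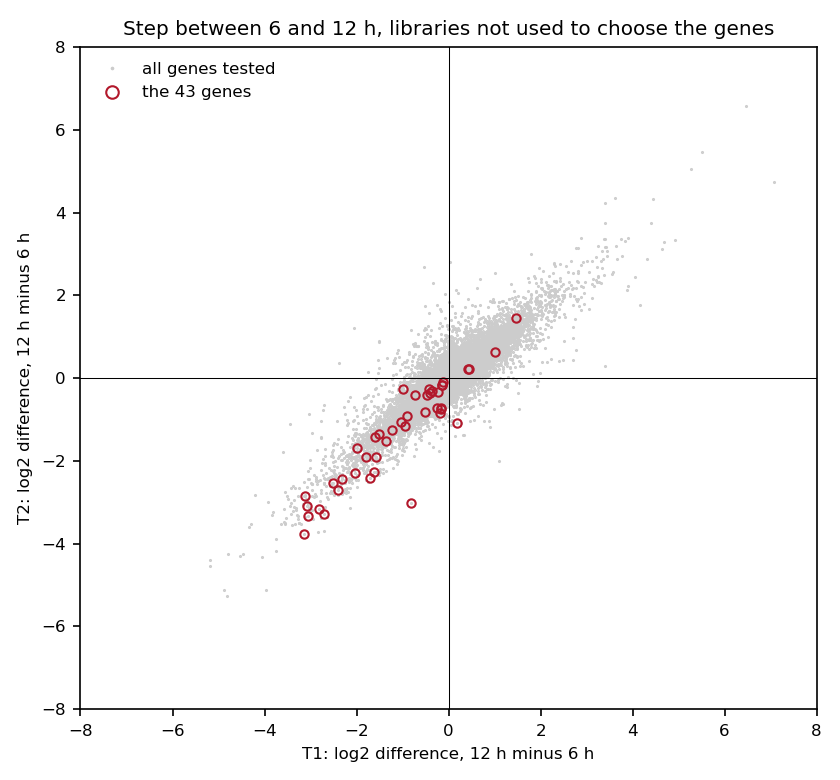
Log2 difference between 12 and 6 h (12 h minus 6 h) in T1 (x axis) and T2 (y axis) for all 19753 genes tested (grey points) and for the 43 genes (red circles). Most red circles lie at the lower left (medians -0.95 for T1 and -1.08 for T2), while the grey points are centred near 0.

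By the mean of the log2 differences in T1 and T2, the 4 genes that fell furthest among those called in both, with a mean of at least 5 at 6 h, included the most abundant. Virad08G0322700 had 744, 1070 and 1230 at 12 h, against 5277, 6257 and 8346 at 6 h, in T1, and 1064, 639 and 737 at 12 h, against 7321, 7713 and 8414 at 6 h, in T2. It fell by 2.71 on the log2 scale in T1 (SE 0.31, limma adjusted p = 2.69e-08) and by 3.29 in T2 (SE 0.31, adjusted p = 9.64e-10), and every 12 h library lay below every 6 h library. Virad08G0083400 had 5.05, 9.9 and 16.5 at 12 h, against 114, 130 and 51.4 at 6 h, in T1, and 6.25, 6.44 and 14.3 at 12 h, against 117, 199 and 87.8 at 6 h, in T2. Its log2 differences were -3.14 in T1 (SE 0.52, limma adjusted p = 1.2e-05) and -3.77 in T2 (SE 0.52, adjusted p = 9.78e-07). This gene therefore passed through its highest level on the way to its lowest.

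Virad02G0095400 and Virad04G0240100 fell by about as much. The first had 79.2, 93.3 and 93.5 at 12 h, against 688, 609 and 972 at 6 h, in T1, and 101, 74 and 99.5 at 12 h, against 859, 687 and 1334 at 6 h, in T2. Its log2 differences were -3.05 in T1 (SE 0.44, limma adjusted p = 1.61e-06) and -3.34 in T2 (SE 0.44, adjusted p = 5.2e-07). Virad04G0240100 had 10.4, 10.5 and 13.9 at 12 h, against 93.7, 97.1 and 125 at 6 h, in T1, and 12.5, 10.8 and 12.3 at 12 h, against 122, 94.3 and 109 at 6 h, in T2. Both log2 differences were -3.08 (SE 0.25 each, limma adjusted p = 7.21e-11 in T1 and 9.04e-11 in T2), and no 12 h library reached any at 6 h in either gene.

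Virad04G0036700 and Virad10G0016100 rose between 6 and 12 h in both treatments. Virad04G0036700 had 13.2, 16.1 and 20.5 at 12 h, against 4.65, 6.24 and 5.02 at 6 h, in T1 (log2 difference 1.47, SE 0.36, limma adjusted p = 0.00145). In T2 it had 12.4, 10.3 and 7.16 at 12 h, against 3.02, 7.55 and 0.764 at 6 h, and the groups overlapped (log2 difference 1.45, SE 0.36, limma adjusted p = 0.00207, but 0.082 in a fit to these groups alone). Without T2 6 h replicate 3, the library at 0.764, its T2 log2 difference was 0.87 (limma adjusted p = 0.0456). At 0 h it had 29.2, 15 and 35.3 in T1 and 14.2, 20.3 and 18.9 in T2, so at 6 h it stood below 0 h in every library. Virad10G0016100 had 53.7, 62.5 and 71.4 at 12 h, against 31.2, 28.2 and 31.3 at 6 h, in T1 (log2 difference 1.02, SE 0.23, limma adjusted p = 0.00062). In T2 it had 53.5, 41.3 and 53.9 at 12 h, against 35.5, 28.5 and 31.3 at 6 h (log2 difference 0.62, SE 0.23, limma adjusted p = 0.0331). The T2 call of this gene was lost without T2 6 h replicate 2 or 3 or without T2 12 h replicate 1 or 3, with adjusted p between 0.071 and 0.108, and with no filter on low values (adjusted p = 0.0541). Over all alternatives its adjusted p in T2 ran from 0.00637 to 0.108.

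The step itself was not shown to differ between the treatments. By limma the T1 step minus the T2 step was called in 0 of the 43 genes, and 5 had an unadjusted p below 0.05. Of all 19753 genes 0 (0%) were called, and 6.63% had such an unadjusted p. The lowest adjusted p among the 43 was 0.701, for Virad06G0234800, which had 73.8, 138 and 190 at 12 h and 179, 337 and 179 at 6 h in T1, and 55.5, 19.1 and 28 at 12 h and 338, 349 and 144 at 6 h in T2.

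Pre-conditioned and directly salted leaves were compared at 6 and at 12 h, again in libraries the rule did not use. At 12 h, 5 of the 43 genes (11.6%) were higher in T1 and 0 lower, while 0.491% of all genes tested were higher and 0.344% lower. At an unadjusted p under 0.05 limma gave 13 higher and 2 lower, 15 in all, against 9.3% of all genes. The median T1 minus T2 difference of the 43 at 12 h was 0.18, against 0.00 over all genes. At 6 h limma called 0 of the 43 genes, and 8 had an unadjusted p below 0.05. Of all genes 0.0405% were called higher and 0.0152% lower at 6 h, 0.0557% in all, and 12.4% had such an unadjusted p.

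At 12 h, 4 of the 5 genes that were higher in T1 have IDs close together: Virad03G0260500, Virad03G0260600, Virad03G0261300 and Virad03G0261400. Virad03G0261300 had 21.6, 38.3 and 44.2 in T1 at 12 h, against 0.83, 0.26 and 0 in T2 (log2 difference 4.70, SE 1.06, limma adjusted p = 0.0215). Virad03G0260600 had 20.4, 30.6 and 35.6 in T1, against 0.902, 0.339 and 0 in T2 (log2 difference 4.42, SE 0.98, limma adjusted p = 0.0193). Virad03G0260500 had 28.9, 32.2 and 32.9 in T1, against 0.937, 0.703 and 0.096 in T2 (log2 difference 4.39, SE 0.91, limma adjusted p = 0.0109). Every T1 library was thus far above every T2 library for these genes. Virad03G0261400, outside the rule for named genes and chosen after its values were seen, had 13.7, 30.7 and 24.7 in T1 and 0.834, 0.087 and 0 in T2 (log2 difference 4.18, SE 0.99, limma adjusted p = 0.0313).

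The same genes were as far apart at 6 h but uneven in T1. Virad03G0261300 had 141, 134 and 4.42 in T1, against 0.848, 1.29 and 0.306 in T2, and Virad03G0260600 had 131, 64.1 and 5.73 in T1, against 0.922, 1.36 and 0.2 in T2. The libraries of the treatments did not overlap. The log2 differences of the 4 genes were between 4.29 and 4.73, with limma adjusted p between 0.0584 and 0.0729. Without T1 6 h replicate 3, the low library, all 4 were called.

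The 0 h libraries of these genes were uneven in T2. At 0 h Virad03G0261300 had 6.34, 15.3 and 21.3 in T1, against 0, 26.5 and 2.06 in T2, and Virad03G0260600 had 10.4, 14.3 and 22.1 in T1, against 0, 25.2 and 3.15 in T2. In T2 1 library, replicate 2, thus carries the 0 h mean from which the late decline of both genes is counted. At 24 h Virad03G0261300 had 8.72, 1.6 and 1.84 in T1 and was listed at 0 in all 3 T2 libraries, and at 48 h it had 2.35, 0.339 and 0.399 in T1 and 0.13, 0 and 0.205 in T2. Virad03G0260600 had 9.77, 1.12 and 0.759 at 24 h in T1, against 0, 0 and 0.108 in T2, and 1.75, 1.1 and 0.293 at 48 h in T1, against 0, 0 and 0.1 in T2. Both genes were at or near 0 in every T2 library at the late times. Within groups the 4 genes went up and down together: the correlation of their deviations from the group means over 42 libraries was between 0.938 and 0.967 for the 6 pairs. The labels do not say whether these IDs are near-identical copies that share reads, so their separate values are uncertain.

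The calls at 12 h rest on few libraries. The number higher in T1 was 1 without T1 12 h replicate 2, T1 12 h replicate 3 or T2 12 h replicate 3 (a plastid-rich library), 2 without T2 12 h replicate 2, and 6 without T1 12 h replicate 1. For Virad03G0261300 the adjusted p over all alternatives ran from 0.00644 to 0.159. Of the 4 genes, Virad03G0260500 alone was still called without T2 12 h replicate 2, and Virad11G0136500, described next, was the gene called in all 6 of these fits.

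**Figure D4:**
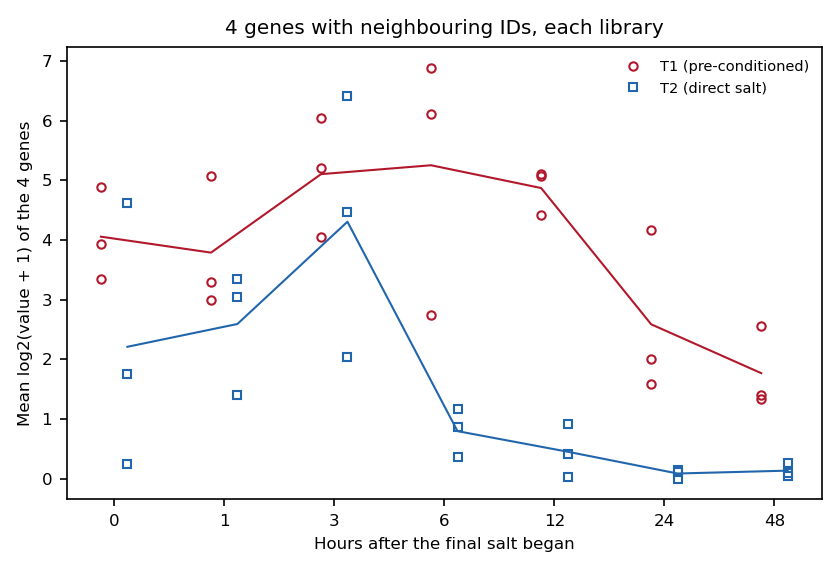
Mean log2(value + 1) of Virad03G0260500, Virad03G0260600, Virad03G0261300 and Virad03G0261400 in each library at 0 to 48 h of the final salt, with T1 as red circles, T2 as blue squares and lines through the group means. T1 lies above T2 in every library at 6 and 12 h, T1 6 h replicate 3 is the lowest T1 library at that time, and the 0 h libraries of T2 are widely spread.

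The gene of the 5 that lies apart in ID order was Virad11G0136500, also outside the rule for named genes. It had 29.2, 60.7 and 99.1 in T1, against 19.9, 13 and 13.4 in T2 (log2 difference 1.82, SE 0.28, limma adjusted p = 0.000747). All T1 libraries lay above all T2 libraries. In a fit to these groups alone its adjusted p was 0.149, and in the other alternatives it ran from 3.95e-06 to 0.0167. At 24 h it had 18.2, 19.4 and 22 in T1 and 15.7, 18.4 and 17.2 in T2, which overlapped.

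Elsewhere the treatments are only described, since the rule used those libraries. The median T1 minus T2 difference of the 43 genes was -0.13 at 0 h and 0.21 at 3 h, with 18 and 34 genes above 0. It was -0.05 at 24 h and -0.16 at 48 h, where 18 and 14 genes lay above 0. At 3 h 34 of the 43 genes thus stood higher in T1, against 51% of all genes tested. At 48 h the extremes were Virad02G0095400, with a T1 minus T2 difference of -1.75 on the log2 scale, and Virad03G0260500, with 2.81.

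The late decline was also looked at in libraries that had no part in the choice. The rule was applied to the libraries with 2 of the 3 replicate numbers, and the change was then read in the third library of each group. Whether libraries of these times with the same number belong together was not tested. With replicate 1 held out, 40 genes were found and 21 (52.5%) had a change of -0.8 or lower at 24 and 48 h in both treatments in the held-out libraries, against 1.91% of all genes tested. With replicate 2 held out it was 13 of 44 (29.5%, against 1.51%), and with replicate 3 it was 17 of 40 (42.5%, against 1.7%).

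The held-out medians all lay below 0. They were between -1.64 and -0.83 with replicate 2 held out, where T1 0 h replicate 2 is the T1 baseline and 22 of 44 genes reached -0.8 at 24 h in T1. They were between -1.53 and -1.25 with replicate 1 held out and between -1.48 and -1.13 with replicate 3 held out. The lists themselves were less stable than the direction: 18, 26 and 22 of the 43 genes were found again from 2 libraries per group. The bounds at 1 and 3 h were also kept in the held-out libraries by 5, 2 and 8 of the genes that kept the late change. The full rule was thus met again by 5 of 40, 2 of 44 and 8 of 40 genes with replicates 1, 2 and 3 held out. The share of all genes tested that met the full rule in those libraries is not given.

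**Figure D5:**
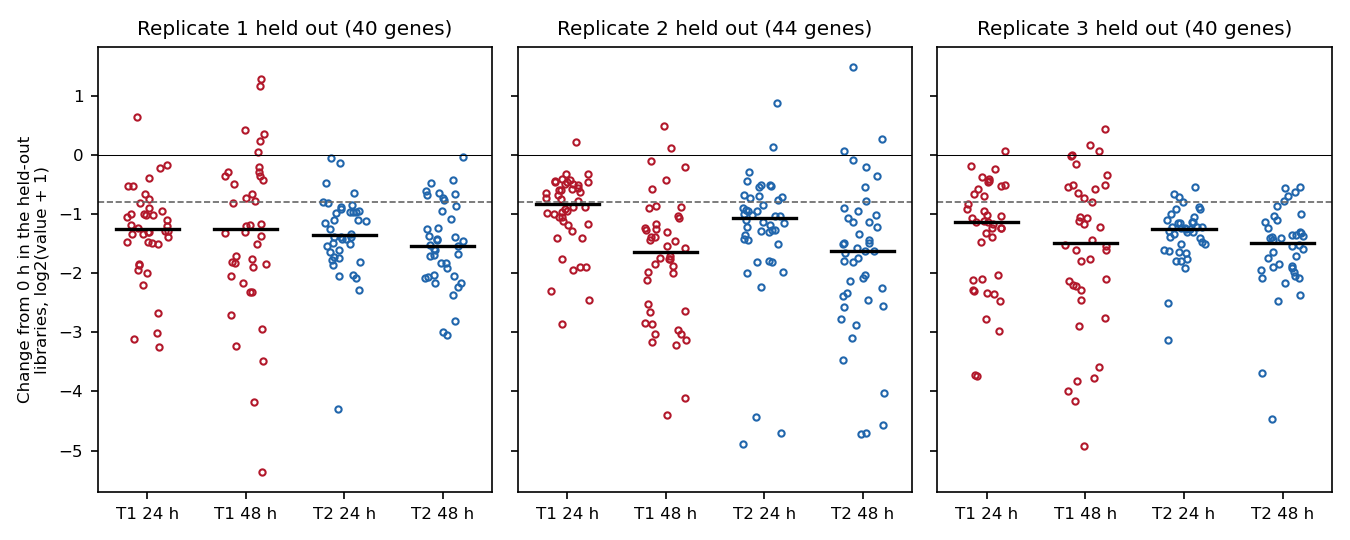
Change from 0 h in log2(value + 1) in the replicate that was held out, for the genes that the other replicates met the rule with (each circle 1 gene, black bar the median, dashed line the bound of -0.8), at 24 and 48 h in T1 (red) and T2 (blue). All 12 medians lie below the dashed line, the nearest being T1 at 24 h with replicate 2 held out, at -0.83.

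The treatments share no library, and each can be read alone. The rule was met in T1 by 300 genes and in T2 by 151, so the 43 are 14.3% of the first list and 28.5% of the second. Of the 257 genes that met it in T1 only, 130 missed only a bound at 1 or 3 h in T2, 65 missed only a bound at 24 or 48 h, and 62 missed both kinds. Their median change in T2 was -1.003 at 24 h and -1.32 at 48 h. Of the 108 genes that met it in T2 only, 83 missed only a late bound in T1, 15 only an early one and 10 both kinds, and their median change in T1 was -0.63 at 24 h and -0.77 at 48 h.

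Several genes lie close to a bound. Inside it are Virad11G0005500, with a change of -0.801 at 48 h in T2, Virad01G0081900, with -0.498 at 1 h in T2, and Virad01G0167300, with -0.804 at 24 h in T2. Just outside are Virad04G0017900, with -0.799 at 24 h in T2, Virad08G0162400, with -0.798 at 48 h in T1, and Virad06G0279600, whose change was -0.505 at 3 h in T2 and -0.798 at 48 h in T2. With each of the 30 libraries at the times of the rule left out in turn, 8 of the 43 genes were found every time, among them Virad08G0255100, Virad04G0240100, Virad01G0091000 and Virad10G0016100.

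The genes also shared a wide spread between replicates. Their median residual SD about the group means was 0.384 on the log2 scale, against 0.201 over all genes tested, and 41 of the 43 lay above that median. The mean correlation of these deviations between pairs of the 43 genes over 42 libraries was 0.201, against 0.00514 between pairs of all genes tested, and it was 0.223 without the 4 genes with neighbouring IDs. The rule used group means from most of these libraries, so the choice itself can favour genes with a wide spread. All pairs share libraries and their scaling, so these are descriptions. By the number in the gene ID, fields 01, 03 and 08 held 7 genes (16.3%) each, against 7.17%, 8.09% and 16.4% of all genes tested, and field 07, with 12.5% of all genes tested, held 0. No other pair of the 43 lay within 10 places in the order of IDs.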

How the data were processed

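The deposited table holds 1 normalized expression signal per gene and library, made by the authors; 42 libraries in 14 groups, 28740 gene IDs. Per the submitters' processing notes the tools were fastp 1.0.1, HISAT2 2.2.1, featureCounts and DESeq2 1.48.2; genome build and annotation: not given in the sources used here. As for the unit, the design assumed TPM, as the table's name says, but its columns sum to different totals, so they may carry a further scaling that those sources do not describe, and no counting interval can be given. Values were analysed as log2(value + 1). Groups and replicate numbers come from the sample titles.

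The 43 genes, the lists and the tests were chosen with earlier results of these data known. A mean per group was fitted to 19753 genes (3 or more libraries with a value of 1 or higher) with limma 3.58.1 in R 4.3.3, with robust trended moderation, two-sided p and Benjamini-Hochberg adjustment over all genes per contrast. With 3 against 3 libraries a permutation test of 1 gene cannot go below p = 0.1. The fit was also run on simulated data, with normal values drawn independently for each gene. The deviations of the 43 genes were correlated, which the simulation leaves out, and its outcome is not given here. Genes named were, by a rule, the 6 of deepest late change, the 6 most abundant at 0 h, up to 4 with the largest rise and 4 with the largest drop between 6 and 12 h called in both treatments (mean of at least 5 in the higher group), up to 3 per T1 against T2 comparison, and 3 either side of the bounds. Lists by product and marker lists were not run. Same-numbered T2 libraries at 6 and 12 h had weakly correlated deviations (correlations of 0.115 to 0.142). The fit that gave the calls did not pair libraries by number. Alternatives were other pseudocounts (0.1, 0.5), filters, scalings, moderation, a replicate block, fits without the other groups and leaving out libraries. Choosing the genes without T1 0 h replicate 2 or after scaling to the same total was added after the data were seen. Python 3.11.15, numpy 2.4.6, pandas 2.3.3, scipy 1.17.1 and matplotlib 3.10.9 were used.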

Additional observations from a re-analysis of the deposited data

How the results depend on the processing

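The number of genes that met the rule depended on the scale. It was 43 as deposited, 77 with a pseudocount of 0.1 (39 of the 43 among them), 24 with every library scaled to the same total (22 of the 43), 19 with a late bound of -1, 24 with an early bound of -0.3, and between 36 and 54 with 1 library left out. Between 6 and 12 h the 43 genes kept 22 or more lower calls in T1 and 25 or more in T2 when 1 library was left out, and 24 in T2 with a mean value of at least 5. The 24 genes of the same-total scaling gave 12 lower and 1 higher in T1 and 14 lower and 1 higher in T2. The 2 genes higher in T2 became 1 with no filter, in a fit without the other groups, without the 3 plastid-rich libraries, for genes chosen without T1 0 h replicate 2, and in 4 of the fits with 1 library left out (range 1 to 2). At 12 h the number higher in T1, 5, ran from 1 to 6 with 1 library left out and was 1 without the plastid-rich libraries, and 1 gene was lower with the same total. At 6 h the number higher in T1, 0, was 1 with a mean value of at least 5 and ran from 0 to 4 with 1 library left out. With replicate 2 held out, 44.4% of genes showed the late change with the same total, against 29.5%. No named gene changed sign in any alternative. The cause of these shifts was not tested. With the replicate number as a block, 22 genes in T1 and 25 in T2 were lower and 5 were higher in T1 at 12 h, so no count changed. For the comparisons other than T2 between 6 and 12 h, same-numbered libraries had correlations of their deviations between -0.517 and 0.548. The highest, 0.459 and 0.548, were for T1 against T2 at 6 h. Whether equal numbers mark libraries that belong together is not known from the labels. Depth is unknown, and values near 0 are limited by it.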

Other observations

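The 4 genes of the 03 field lie in a longer run of IDs with a like course. In a window of 60 IDs around them, of which 52 were tested, 12 further genes had a correlation of their log2 level with the mean of the 4 above 0.9 over 42 libraries (0.943 to 0.982), all between Virad03G0260500 and Virad03G0262600. The points of this correlation share libraries and treatment, and it is a description. Of these 12 genes 11 missed the bound at 24 h in T1, and the other, Virad03G0262200, missed only the bound at 1 h in T1. Virad03G0262200 had means of 36.8 in T1 and 0.418 in T2 at 12 h, and Virad03G0261200 had 26.9 in T1 and 0.43 in T2. Of the 97 genes of the whole table that limma called higher in T1 than in T2 at 12 h, 14 belong to this run of 16, and 10 of those are not among the 43. The genes were chosen for this description after their values were seen.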
